A study of Mus musculus with 2 samples.

Results

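The 6 genes described here are the natriuretic peptide genes Nppa and Nppb, the natriuretic peptide receptor genes Npr1, Npr2 and Npr3, and Cited1. They were matched by symbol in the gene table, where all 6 were found among 31053 genes. They were chosen by values of these libraries, among them levels of Nppa and Cited1 outside the myocardium in mutant and control cells, so every level below is a description without a test. The libraries come from mouse hearts at stage E12.5, dissociated into single cells and profiled by droplet RNA sequencing. The mutant library is Tbx18-Cre; Prmt1 fl/fl;YFP/+, and the control library is Tbx18-Cre; YFP/+. Both groups thus carry the Tbx18-Cre driver and 1 YFP reporter allele, and only the mutant has the floxed Prmt1 alleles. Prmt1 encodes a protein arginine methyltransferase, and the series set out to delete it in the epicardium. Tbx18 is active in the epicardium and its descendants but also in parts of the embryonic myocardium, so the driver is not limited to 1 cell type. There is 1 library per genotype, and whether it pools several embryos is not given in the sources used here. No difference between the libraries therefore has a replicate check, and all intervals cover counting error only.

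Nppa encodes atrial natriuretic peptide and Nppb encodes brain natriuretic peptide, hormones that cardiomyocytes release and that lower blood pressure and salt load. In the embryonic heart Nppa marks the working myocardium of the atria and the ventricular trabeculae, the muscle ridges that line the chamber, and it is low in the compact wall and in the atrioventricular canal. Npr1 and Npr2 are receptors that make cyclic GMP when they bind a natriuretic peptide. Npr1 answers to the peptides of Nppa and Nppb, and Npr2 answers to C-type natriuretic peptide, the product of Nppc. Npr3 has no guanylyl cyclase domain and clears the peptides from the outside of the cell. Cited1 is a transcriptional coactivator that binds CBP and p300 and has no DNA-binding domain of its own.

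Nppa and Nppb lie next to each other on chromosome 4 of GRCm38, on the plus strand, with 13517 bases from the end of Nppb to the start of Nppa. GENCODE M21 places Nppa at chr4:148000722-148002079 and Nppb at chr4:147985788-147987205. Their promoter windows are shown because both genes were found in the same cardiomyocytes. Each is the RefSeq sequence (GRCm38.p6, plus strand) from 250 bases before to 50 bases after the start in that table, 5′ to 3′, at chr4:148000472-148000771 for Nppa and chr4:147985650-147985949 for Nppb. The start used for Nppb lies 112 bases inside the GENCODE gene, and that of Nppa is the same in both. Capitals mark every match, on either strand, to the GATA motif GATAA, the T-box motif TCACAC, the NKX motif AAGTG or the TATA box TATAAA.
Nppa: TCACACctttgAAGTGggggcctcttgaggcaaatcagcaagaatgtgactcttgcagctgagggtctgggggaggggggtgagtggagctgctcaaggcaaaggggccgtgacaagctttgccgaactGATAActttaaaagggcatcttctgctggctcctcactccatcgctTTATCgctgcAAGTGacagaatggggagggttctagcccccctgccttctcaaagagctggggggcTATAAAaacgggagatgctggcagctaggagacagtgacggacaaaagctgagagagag
Nppb: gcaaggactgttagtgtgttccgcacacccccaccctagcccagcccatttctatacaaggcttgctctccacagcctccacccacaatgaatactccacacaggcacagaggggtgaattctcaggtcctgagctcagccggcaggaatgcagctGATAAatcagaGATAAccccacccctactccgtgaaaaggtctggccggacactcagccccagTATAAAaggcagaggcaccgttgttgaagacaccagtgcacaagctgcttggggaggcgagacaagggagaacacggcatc
The Nppa window held 2 GATA matches, 1 T-box match, 2 NKX matches and 1 TATA box, and no matches overlapped. The Nppb window held 2 GATA matches and 1 TATA box and no match to the other motifs. Of the 32851 promoter windows of this length in the RefSeq table, 25.4% held GATAA, 14.5% TCACAC, 46.4% AAGTG and 13.6% TATAAA on either strand. All 6 genes had a window in that table. The windows of Npr1 on chromosome 3, Npr2 on chromosome 4 and Npr3 on chromosome 15 held none of these motifs, and each of the 3 windows of Cited1 on chromosome X held at least 1.

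The libraries held 48527471 UMIs (unique molecular identifiers, each counting 1 captured transcript) in the mutant and 49323576 UMIs in the control. After the same minimums, 4640 mutant and 4100 control cells were kept, with medians of 4046 and 5896.5 UMIs, and 8 barcodes occurred in both libraries. Cells were sorted into classes, called gates here, by marker genes that include none of the 6 genes. Droplets that passed the markers of several gates, except epicardial cells with mesenchymal markers, were kept apart. They were 133 mutant and 69 control droplets with endothelial and mesenchymal markers, and 9 and 16 with epicardial and cardiomyocyte markers. Other mixtures made up 258 mutant and 258 control droplets. Also apart were 61 mutant and 100 control cardiomyocytes assigned to neither chamber, and 195 mutant and 179 control cells that passed no gate. Levels are given as CPM, the gene's share of the gate's UMIs scaled to 1000000. Prmt1 had 383 CPM (95% interval 353 to 415) in mutant epicardial cells and 463 CPM (419 to 511) in control epicardial cells. The share of epicardial cells with a Prmt1 UMI was 66.3% in the mutant and 65.0% in the control. In all other gates Prmt1 was higher in the mutant. In ventricular cardiomyocytes it had 783.7 CPM in the mutant, against 660.4 CPM in the control. In mesenchymal cells it had 667 CPM in the mutant, against 630 CPM in the control, and over all kept cells 624 CPM against 567 CPM. Whether the sequenced ends of Prmt1 transcripts lie in the floxed part is not known here, so these levels check the label only in part.

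Nppa RNA was found mainly in cardiomyocytes, and most of all in those of the atria. The atrial gate held 336 mutant and 431 control cells, which carry the cardiomyocyte markers, little ventricular Myl2 and an atrial list led by Sln. There Nppa had 51986 UMIs, or 8257 CPM (95% Poisson interval 8187 to 8329), in the mutant, against 52956 UMIs, or 7093 CPM (7033 to 7154), in the control. The ventricular gate, with Myl2, held 1191 mutant and 1496 control cells. There Nppa had 24766 UMIs, or 1215 CPM (1200 to 1230), in the mutant, against 21031 UMIs, or 920.2 CPM (907.8 to 932.7), in the control. In the other 5 gates it stayed under 40 CPM in both libraries. It had 12.1 and 37.7 CPM in epicardial, 9.67 and 11.1 CPM in mesenchymal, 10.1 and 5.94 CPM in endothelial, and 5.43 and 7.95 CPM in immune cells of the mutant and the control. Erythroid cells, the nucleated red cells of the embryo, do not make the peptide, and they had 12.7 CPM in the mutant, against 6.32 CPM in the control.

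**Figure D1:**
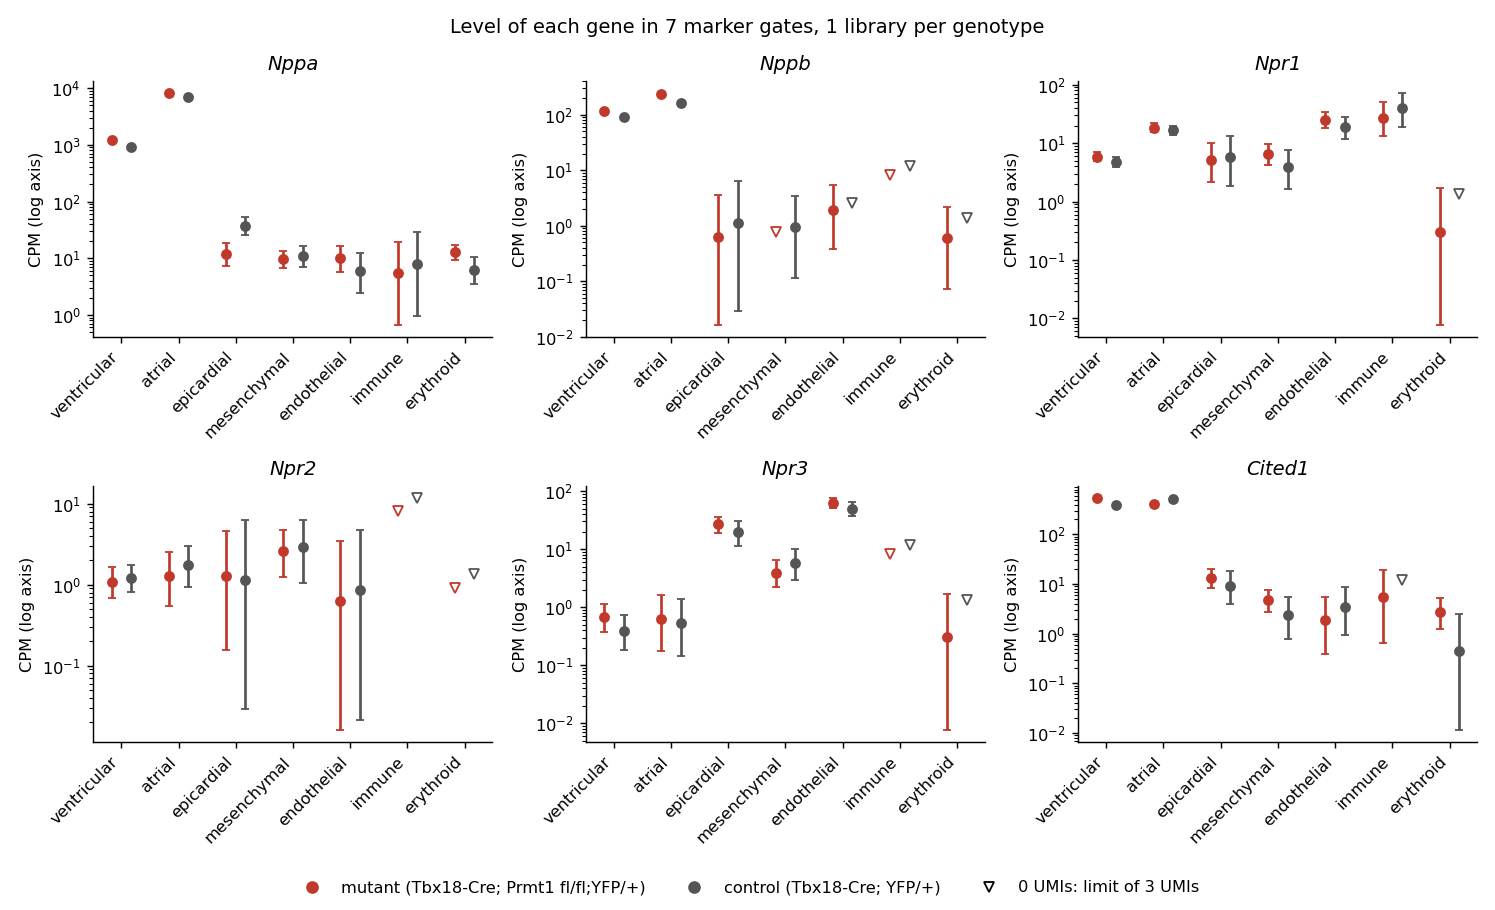
CPM on a log axis for each gene in 7 gates, with 95% Poisson intervals (counting error only); filled circles are the mutant (red) and control (grey) libraries, and open triangles mark gates with 0 UMIs at the limit of 3 UMIs. Nppa, Nppb and Cited1 stand high in the cardiomyocyte gates, from 92.3 CPM of Nppb in control ventricular cells to 8257 CPM of Nppa in mutant atrial cells, while Npr3 stands highest in endothelial cells at 63.5 CPM in the mutant, against 49.2 CPM in the control.

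Within the ventricle, Nppa was spread over cells very unevenly. In the mutant 44.5% of ventricular cells had no Nppa UMI, 30.7% had 1 to 9, 19.5% had 10 to 99 and 5.29% had 100 or more. In the control these shares were 52.9%, 28.6%, 15.8% and 2.67%. The 10% of ventricular cells richest in Nppa held 78.2% of its UMIs in the mutant and 83.7% in the control. The highest single ventricular cell had 1026 Nppa UMIs in the mutant and 1196 in the control. In the atria the same top 10% of cells held 51.4% of the Nppa UMIs in the mutant and 58.3% in the control. Atrial cells without an Nppa UMI made up 20.5% in the mutant and 29.5% in the control, and cells with 100 or more made up 36.6% and 30.4%. Cells without Nppa were shallower, with medians of 10235 and 8823 UMIs in the ventricular gate of the mutant and the control, against 13810 and 13348 UMIs in cells with it.

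**Figure D2:**
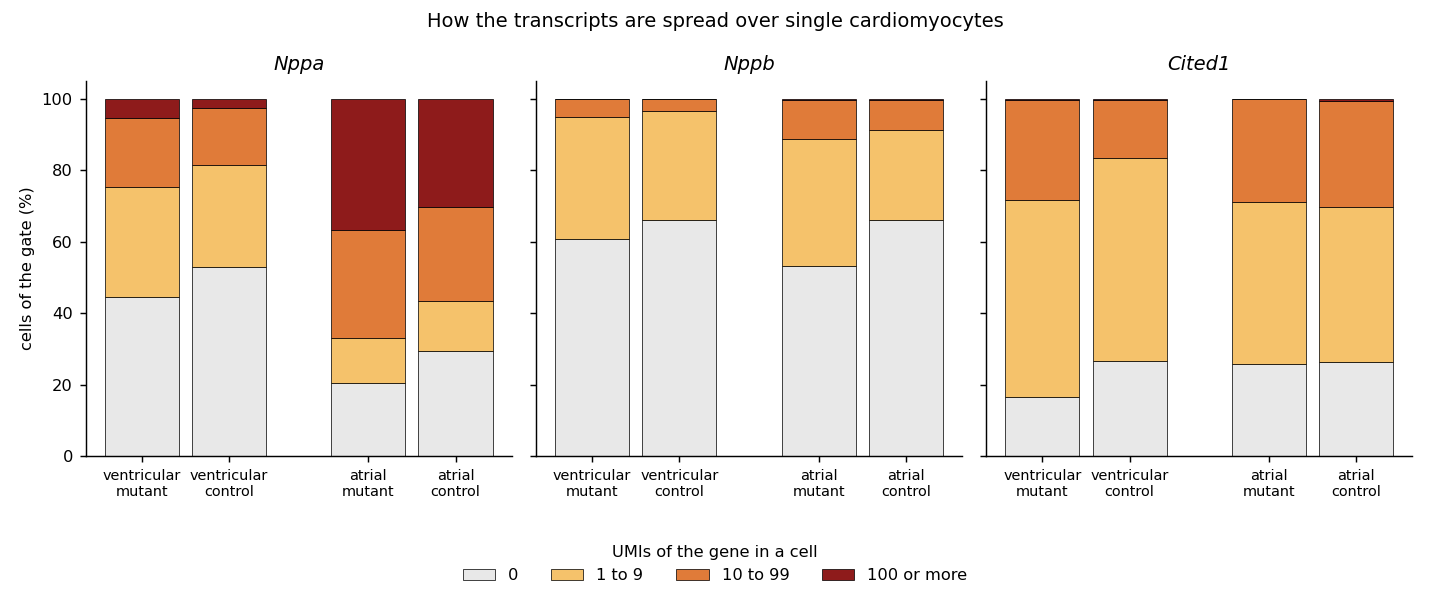
Shares of cells (percent of the gate) with 0, 1 to 9, 10 to 99 and 100 or more UMIs of Nppa, Nppb and Cited1, stacked for ventricular and atrial cells of the mutant and the control library. Atrial cells with 100 or more Nppa UMIs make up 36.6% in the mutant and 30.4% in the control, while 60.8% of mutant and 66.1% of control ventricular cells have no Nppb UMI.

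Set against the control, Nppa was higher in mutant cardiomyocytes of both chambers. The ratio of mutant over control CPM was 1.32 (exact interval 1.30 to 1.35) in ventricular and 1.16 (1.15 to 1.18) in atrial cells. The share of ventricular cells with Nppa was 55.5% (52.6 to 58.3, Clopper-Pearson) in the mutant and 47.1% (44.5 to 49.6) in the control. With each cell thinned to 2000 UMIs the shares were 36.7% and 29.1%. Of the 6 genes, Nppa, Nppb and Cited1 passed the minimum of 50 CPM and 30 UMIs in the cardiomyocyte gates, and 0 of these 3 passed a 1.5-fold difference in either gate. This call changed with the processing, since the ventricular Nppa ratio was 1.73 with equal weight per cell, 1.73 with cells thinned to 2000 UMIs and 1.55 with doubled gate thresholds. Ventricular Cited1 was 1.53 when thinned, and atrial Nppb was 1.69 with doubled thresholds and 1.54 with equal weight per cell. Over all 2013 ventricular and 2155 atrial genes measured, 1.39% and 1.95% passed it in either direction. In the ventricular gate 42 of the 2013 genes had a higher ratio than Nppa, 55 a higher ratio than Nppb and 29 a higher ratio than Cited1. The median log2 ratio of all genes there was 0.01. In the epicardial and mesenchymal gates 0 of the 6 genes passed the minimum.

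The Nppa difference varied with the depth of the cells, in bins set after its values were seen. Among ventricular cells with 1000 to under 5000 UMIs Nppa had 493 CPM in the mutant, against 191 CPM in the control, a ratio of 2.58. Among cells with 5000 to under 10000 UMIs it had 830 and 521 CPM in the mutant and the control (ratio 1.59), and among cells with 10000 to under 20000 UMIs 1366 and 656 CPM (ratio 2.08). Among the deepest cells, with 20000 UMIs or more, it had 1253 CPM in the mutant, against 1224 CPM in the control, a ratio of 1.02. These deepest cells, 301 in the mutant and 343 in the control, held 14079 and 14803 of the Nppa UMIs and so weigh most in the pooled ratio. With equal weight per cell the log2 ratio was 0.79, against 0.40 for pooled UMIs. In the atria the ratio was 2.35 among the shallowest and 1.05 among the deepest cells. The intervals count UMIs as independent, which the uneven spread over cells shows they are not, so they are too narrow for cells. Haemoglobin RNA, which cardiomyocytes do not make, had 2266 CPM in mutant and 534 CPM in control ventricular cells, and 3839 CPM and 285 CPM in atrial cells of the mutant and the control. Its part in the difference was not tested.

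**Figure D3:**
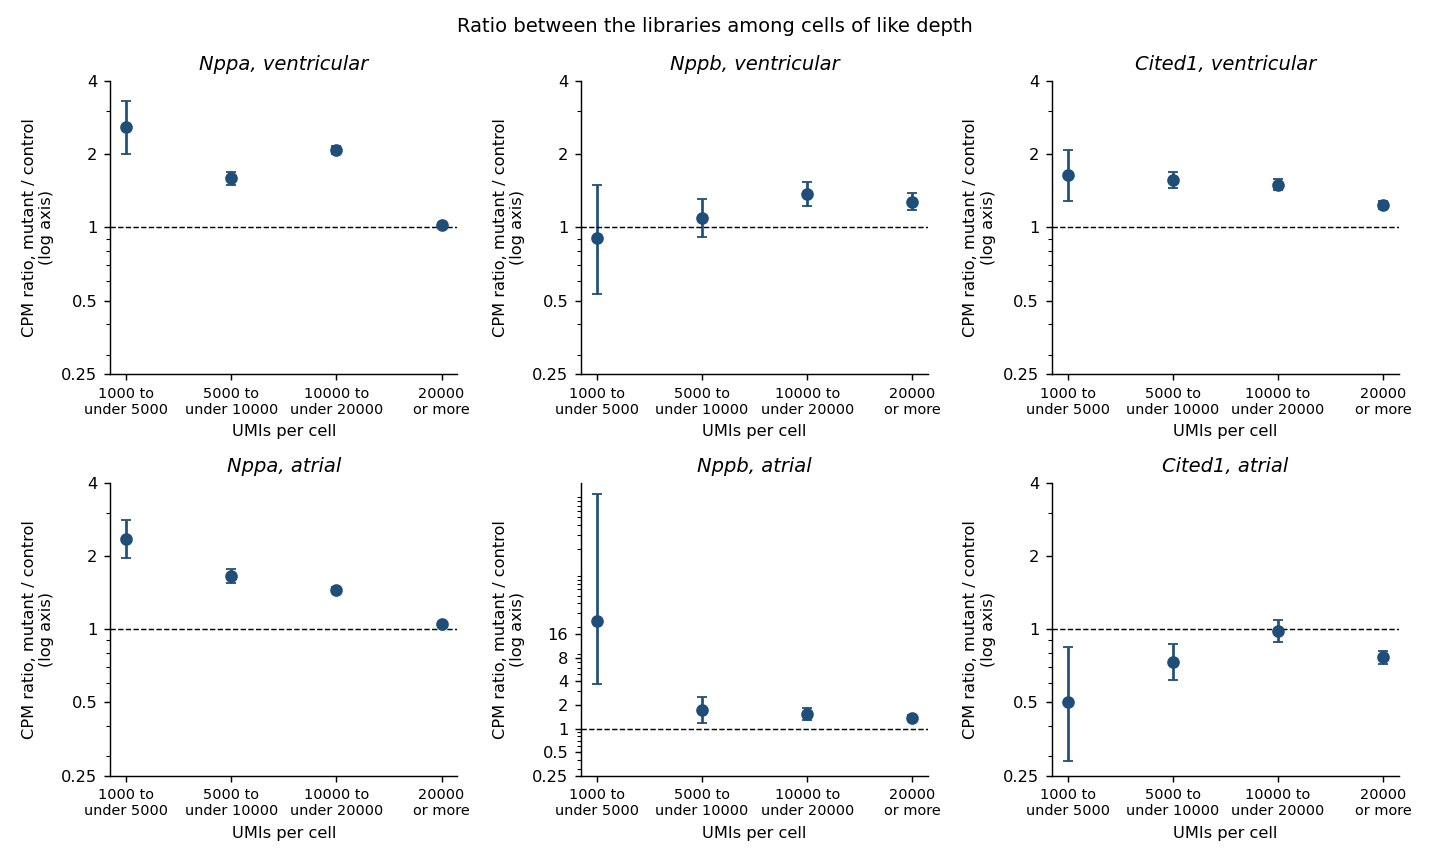
Ratio of mutant over control CPM on a log axis for Nppa, Nppb and Cited1 in ventricular (top) and atrial (bottom) cells, split by the number of UMIs per cell; bars are exact 95% intervals (counting error only) the dashed line marks equal levels, and the atrial Nppb axis is wider. Nppa falls near the line among cells with 20000 UMIs or more (1.02 and 1.05), while Cited1 lies above it in every ventricular bin and below it in every atrial bin.

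Nppb was found almost only in cardiomyocytes. In atrial cells it had 1495 UMIs, or 237.5 CPM (225.6 to 249.8), in the mutant, against 1219 UMIs, or 163 CPM (154 to 173), in the control. In ventricular cells it had 2418 UMIs, or 118.6 CPM (113.9 to 123.4), in the mutant, against 2109 UMIs, or 92.3 CPM (88.4 to 96.3), in the control. The ratios were 1.45 (1.35 to 1.57) in the atria and 1.29 (1.21 to 1.36) in the ventricles. In the atria 27 of 2154 genes had a higher ratio than Nppb. The other 5 gates held at most 3 Nppb UMIs each, and the 0 UMIs in 1368 mutant mesenchymal cells allow a level of up to 0.784 CPM. Nppb was sparser among cells, with at least 1 UMI in 46.7% of mutant and 33.9% of control atrial cells, and in 39.2% of mutant and 33.9% of control ventricular cells. By depth, the ventricular ratio was 0.909 (0.532 to 1.5) in the shallowest and 1.28 (1.18 to 1.38) in the deepest cells.

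Atrial cells with Nppb nearly always had Nppa as well, which was less so in the ventricle. Of 157 mutant atrial cells with Nppb only 2 had no Nppa, and of 146 control atrial cells also 2. In the ventricular gate 118 of 467 mutant cells and 166 of 507 control cells with Nppb had no Nppa. Cells without Nppb also had Nppa more often in the atria, at 62.6% in the mutant and 56.1% in the control, than in the ventricle, at 43.1% and 36.7%. Atrial cells with Nppb were deeper, with medians of 19925 and 19218.5 UMIs, than those without it, with 9284 and 9983 UMIs. The part of these in the contrast between chambers was not tested. The ventricular level of Nppb was higher the more Nppa a cell held. It was 42.7, 99.1, 152.2 and 363 CPM in mutant cells with 0, 1 to 9, 10 to 99 and 100 or more Nppa UMIs, and 44.5, 88.8, 118 and 282.5 CPM in control cells. Over single ventricular cells the Pearson correlation of the log-scaled counts was 0.42 in 1191 mutant cells and 0.32 in 1496 control cells. These cells share a library and differ in depth, with medians from 10235 to 25645 UMIs over the 4 mutant classes and from 8823 to 43382 UMIs over the control classes.

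Cited1 was likewise found in cardiomyocytes, and its difference between the libraries had opposite signs in the chambers. In ventricular cells it had 11020 UMIs, or 540.6 CPM (530.5 to 550.8), in the mutant, against 9012 UMIs, or 394 CPM (386 to 403), in the control, a ratio of 1.37 (1.33 to 1.41). In atrial cells it had 2618 UMIs, or 416 CPM (400.1 to 432), in the mutant, against 3850 UMIs, or 516 CPM (499.5 to 532), in the control, a ratio of 0.806 (0.767 to 0.848). Mutant ventricular cells thus lay above mutant atrial cells, and control ventricular cells below control atrial cells. The ventricular ratio was 1.64, 1.57, 1.499 and 1.24 from the shallowest to the deepest bin, and the atrial ratio 0.501, 0.732, 0.981 and 0.767, the third with an interval of 0.883 to 1.09. In the atrial gate 115 of 2154 genes had a lower ratio than Cited1. Cited1 was spread over more ventricular cells than the peptides, with at least 1 UMI in 83.4% of mutant and 73.4% of control cells, and its top 10% of cells held 48.2% and 56.2% of the UMIs. In atrial cells the shares with a UMI were 74.1% and 73.8%.

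The atrial difference in Cited1 was larger among cells without Nppa than among cells with it. In the 69 mutant atrial cells without an Nppa UMI Cited1 had 33 UMIs, or 54.9 CPM, and in the 127 such control cells it had 429 UMIs, or 303 CPM (ratio 0.181, 0.123 to 0.259). In atrial cells with Nppa it had 454 CPM in 267 mutant cells and 565.5 CPM in 304 control cells (ratio 0.803, 0.762 to 0.845). The lower atrial Cited1 of the mutant was therefore present in cells with Nppa too. Tbx3, a repressor of the chamber programme in the conduction system, had 2 UMIs in the mutant and 29 UMIs in the control cells without Nppa, so these cells also differed in that gene.

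Nppa, Nppb and Cited1 were higher in ventricular cells with trabecular markers, taken as a list of Bmp10, Gja5, Irx3 and Cpne5. By single markers of this list, Nppb with Cpne5 was the exception, at 110.2 CPM in mutant cells with Cpne5, against 119.7 CPM in those without it, and at 86.0 CPM in control cells with it, against 92.9 CPM without it. The single compact markers were mixed. Control Nppa was higher with Hey2 (1028 against 862 CPM) and Mycn (934 against 917 CPM). Mutant Nppa was lower with Hey2 (1051 against 1348 CPM) and Mycn (777 against 1352 CPM). Nppb was higher with Mycn in the mutant (130 against 115 CPM) and the control (93.6 against 92.0 CPM). Nppb with Hey2 and Cited1 with either marker were lower in both libraries. Ventricular cells with a UMI of this list and none of the compact markers Hey2 and Mycn numbered 142 in the mutant and 137 in the control, and cells with the reverse pattern 322 and 335. Nppa had 2309 CPM in trabecular-marked and 841 CPM in compact-marked mutant cells, a ratio of 2.74 (2.65 to 2.84). In the control it had 2057 CPM in trabecular-marked and 697 CPM in compact-marked cells, a ratio of 2.95 (2.84 to 3.07). Nppb was 1.67 times (1.48 to 1.88) higher in trabecular-marked mutant cells and 1.84 times (1.62 to 2.10) higher in trabecular-marked control cells. For Cited1 the ratios were 2.04 (1.93 to 2.16) in the mutant and 3.06 (2.87 to 3.26) in the control. The compact-marked cells were deeper, with medians of 16884.5 and 15976 UMIs in the mutant and the control, than the trabecular-marked cells, with 14135.5 and 13518 UMIs.

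The libraries lay closer together in trabecular-marked than in compact-marked cells. Cited1 had 792 CPM in mutant and 785 CPM in control trabecular-marked cells (ratio 1.01, 0.949 to 1.07). In compact-marked cells it had 389 CPM in the mutant, against 257 CPM in the control (ratio 1.51, 1.43 to 1.61). For Nppa the ratio was 1.12 (1.08 to 1.16) in trabecular-marked and 1.21 (1.16 to 1.25) in compact-marked cells. It was 1.94 (1.87 to 2.01) in cells with neither list, where Nppa had 1015 CPM in the mutant, against 524 CPM in the control. In cells with both lists Nppa went the other way, with 1432 CPM in 114 mutant cells and 1969 CPM in 83 control cells (ratio 0.727, 0.700 to 0.755). Cells with neither list were the shallowest, at medians of 9437 and 8972 UMIs, and made up 51.5% of mutant and 62.9% of control ventricular cells. The part of depth and of these shares in the differences was not tested.

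**Figure D4:**
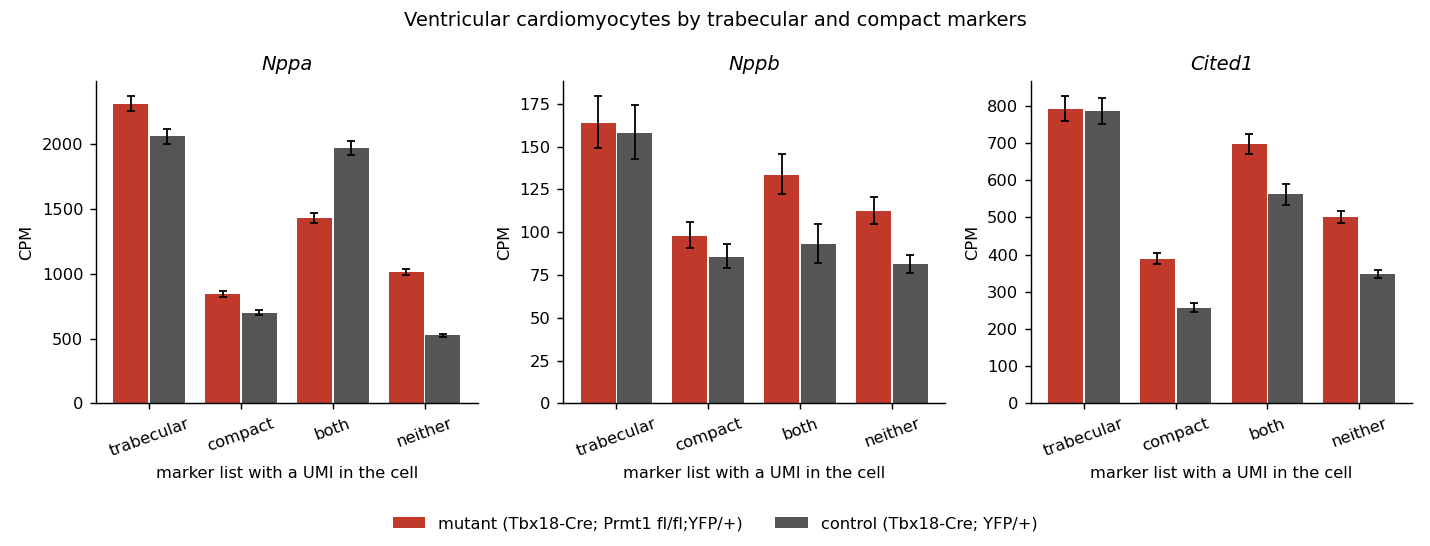
CPM of Nppa, Nppb and Cited1 in ventricular cells with UMIs of trabecular markers, compact markers, both or neither, for the mutant (red, left bars) and the control (grey, right bars), with 95% Poisson intervals (counting error only). All 3 genes are higher in trabecular-marked than in compact-marked cells of both libraries, and Nppa in cells with both lists is lower in the mutant (1432 CPM) than in the control (1969 CPM).

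Cells with Tbx2 or Tbx3, repressors that keep the chamber genes low in the atrioventricular canal and conduction system, had less Nppa in the atria of both libraries and in the mutant ventricle, but not in the control ventricle. In the atrial gate the 39 mutant cells with either gene had 3932 CPM of Nppa, against 9534 CPM in the other mutant cells, and the 39 control cells had 5408 CPM against 7317 CPM. In the ventricular gate 56 mutant cells with either gene had 330 CPM, against 1276 CPM in the rest. The 41 such control cells had 1168 CPM against 905.5 CPM. The share of these control cells with any Nppa UMI was 46.3%, against 47.1% of the other control cells, although their median depth was 22357 UMIs against 10240 UMIs. Of these control cells 1 held 810 of their 1499 Nppa UMIs. The cells were also not alike between the libraries, since 28 mutant and 7 control ventricular cells had Tbx3 only, and 23 mutant and 33 control ventricular cells had Tbx2 only. In the atria 6 mutant and 19 control cells had Tbx3 only, and 27 and 20 had Tbx2 only.

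The levels of the peptides outside cardiomyocytes were set against those that stray cardiomyocyte RNA would bring. Droplets take up RNA freed from broken cells. The measure assumes that 1 source of such RNA keeps its genes in 1 ratio in every cell type. In the control, 43867 barcodes with 10 to 100 UMIs, too few for a cell, held Nppa at 1277 CPM, Cited1 at 269 CPM and Nppb at 41.1 CPM. The mutant matrix was deposited without such barcodes. The UMIs expected in each gate were taken from those of Myl3, Myl4, Myh6, Myh7 and Tnni3, sarcomere genes, and their ratio to each gene in cardiomyocytes of the same library. That ratio pools both chambers, which differ in Nppa, at 8257 CPM in atrial and 1215 CPM in ventricular cells of the mutant. In the control these levels were 7093 and 920.2 CPM. The share of each chamber in the stray RNA is not known, so the expected Nppa could be higher or lower, which the counting intervals do not cover. The list first set for this also held Myl7 and Tnni1, which non-muscle gates held far above the other 5. Myl7 had 21.7 UMIs per cell in mutant epicardial cells, where Myl3 had 0.288, so the list of 5 was chosen after the data were seen.

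By this measure, with both chambers pooled, the Nppa of mesenchymal, endothelial, immune and erythroid cells did not exceed the expected stray RNA in either library. In erythroid cells 42 Nppa UMIs were found against 44.4 expected in the mutant, and 14 against 18.2 in the control. In mesenchymal cells 37 were found against 76.9 in the mutant and 23 against 38.6 in the control. Found over expected was thus 0.481 (0.339 to 0.663) in mutant and 0.596 (0.378 to 0.895) in control mesenchymal cells. For mutant endothelial cells it was 0.546 (0.312 to 0.887). Intervals below 1 mean that the expected UMIs were too high there. A gate that stays under such a value may still hold Nppa of its own, so the measure cannot tell the 2 apart. Epicardial cells had 19 UMIs against 56.2 expected in the mutant (found over expected 0.338, 0.203 to 0.527) and 33 against 13.5 in the control (2.44, 1.68 to 3.43). With the list first set, the epicardial values were 0.0229 in the mutant and 0.0970 in the control, so the control excess rests on the list of 5. It also depends on the pooled ratio of the chambers. These values rest on few droplets. In the control 2 of 246 held 13 and 11 Nppa UMIs, and in the mutant 1 held 6 Nppa UMIs and 220 of the UMIs of the 5 sarcomere genes, against 118 in all the others. Without droplets of 5 or more Nppa UMIs, chosen after the data were seen, 13 UMIs were found against 19.6 expected in the mutant (0.662, 0.353 to 1.13) and 9 against 11.1 in the control (0.808, 0.369 to 1.53). Epicardial cells then had 8.56 CPM in the mutant, against 10.3 CPM in the control, a log2 ratio of -0.27, against -1.64 with them. The filter removes droplets by the Nppa count itself, so the lower control value follows from it. The values after the filter cannot show whether epicardial Nppa is stray RNA.

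Droplets with both epicardial and cardiomyocyte markers held most of the Nppa and Cited1 UMIs found together with epicardial markers. There were 9 in the mutant and 16 in the control, with medians of 16593 and 21950.5 UMIs, against 2682.5 and 2324 UMIs in epicardial cells. The top 6% of scores for doublets, droplets with more than 1 cell, held 7 of them in the mutant and 8 in the control. Of epicardial cells, 10 of 410 in the mutant and 4 of 246 in the control had such scores. Haemoglobin RNA reached 68160 CPM in these mutant droplets (697.8 in mutant epicardial cells). For the control droplets it was 24970 CPM (454.1 in control epicardial cells). Whether these droplets were single cells was not tested. They held 53 Nppa UMIs in the mutant and 524 in the control. They also held 91 Cited1 UMIs in the mutant, 68 of them in 1 droplet, and 206 in the control, 186 of them in 1 droplet. Adding them to the epicardial gate would put Nppa at 41.1 CPM in the mutant, against 441 CPM in the control. Cited1 would stand at 63.9 CPM in the mutant, against 169 CPM in the control. Without them Cited1 had 21 UMIs in 18 mutant epicardial cells, or 13.4 CPM (8.28 to 20.5), and 8 UMIs in 6 control epicardial cells, or 9.13 CPM (3.94 to 18.0). These were above the 9.89 and 2.33 UMIs expected from stray RNA in the mutant and the control (2.12, 1.32 to 3.25, and 3.43, 1.48 to 6.76), with no droplet over 2 UMIs. With the list first set, Cited1 found over expected was 0.144 in the mutant and 0.136 in the control, and with the genes of the cardiomyocyte gate it was 0.492 in each. The excess thus also rests on the list of 5, chosen after the data were seen. Cited1 was itself chosen by its levels outside the myocardium, so the excess is a description and no support for its expression there. Without the droplets of 5 or more Nppa UMIs the expected Cited1 UMIs were 3.45 in the mutant and 1.92 in the control, and found over expected was 6.08 (3.77 to 9.30) and 4.16 (1.80 to 8.20). The ratio between the libraries was 1.47 (0.624 to 3.83), and a difference was not detectable at this depth.

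**Figure D5:**
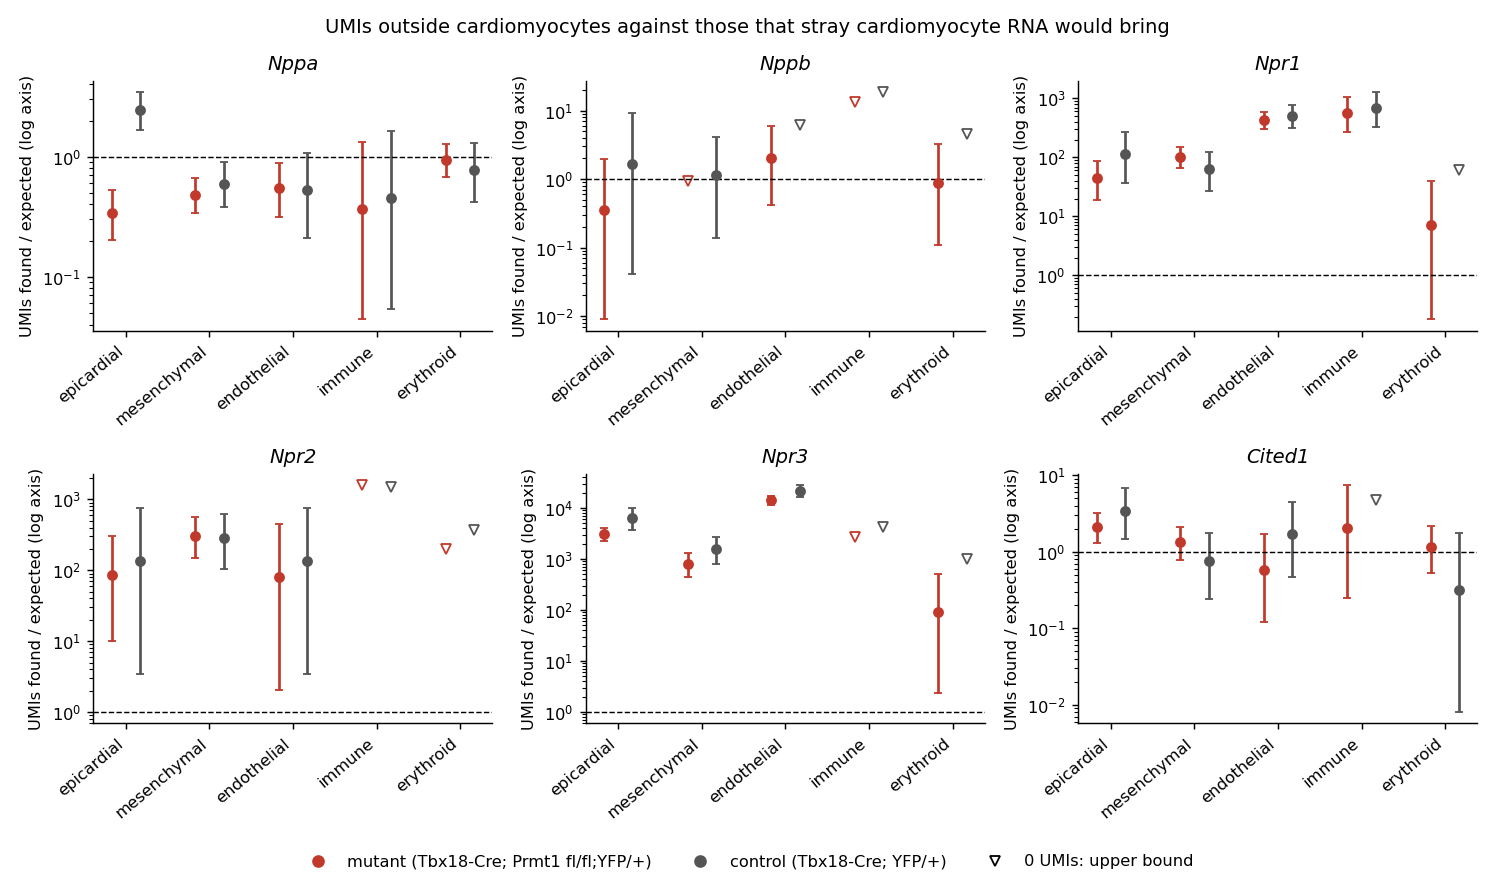
UMIs found over UMIs expected from stray cardiomyocyte RNA (log axis) for each gene in 5 gates of the mutant (red) and control (grey) libraries; bars are 95% Poisson intervals (counting error only), open triangles mark upper bounds where 0 UMIs were found, and the dashed line is 1. Nppa lies at or below 1 except in control epicardial cells (2.44), and Npr1 and Npr3 lie far above 1 in endothelial cells of both libraries. Expected UMIs use the ratio of both chambers pooled.

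Npr3, the clearance receptor, had its highest level in endothelial cells and a lower one in the epicardium. Endothelial cells, 304 in the mutant and 245 in the control, had 101 UMIs, or 63.5 CPM (51.7 to 77.2), in the mutant, against 58 UMIs, or 49.2 CPM (37.4 to 63.6), in the control. Epicardial cells had 42 UMIs, or 26.8 CPM (19.3 to 36.2), in the mutant, against 17 UMIs, or 19.4 CPM (11.3 to 31.1), in the control. The intervals of these gates do not overlap in either library. Mesenchymal cells had 3.92 CPM in the mutant, against 5.77 CPM in the control, the ventricular and atrial gates at most 0.687 CPM, and immune cells of both libraries had 0 UMIs. Stray cardiomyocyte RNA would bring 0.00711 and 0.00264 UMIs of Npr3 into endothelial cells of the mutant and the control. The share of endothelial cells with Npr3 was 18.1% in the mutant and 13.5% in the control, against 0.332% in erythroid cells of the mutant and 0 of 153 in the control, which allows up to 1.96% of cells with a UMI and does not limit the cells that express it. Erythroid cells were deeper, with medians of 8500 and 14594 UMIs, than endothelial cells, with 3082.5 and 2438 UMIs. The mutant over control ratio was 1.29 (0.925 to 1.81) in endothelial and 1.38 (0.769 to 2.58) in epicardial cells, so no difference was detectable. Of the endothelial genes measured, 7.7% passed 1.5-fold in either direction, and Npr3, the only one of the 6 to pass the minimum there, did not.

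Within the endothelium Npr3 was higher in cells marked only for the endocardium, the lining of the heart chambers, than in cells marked only for vessels. Cells with endocardial markers (Nfatc1, Cgnl1, Tmem100, Hapln1) and no vascular ones had 91.4 CPM in the mutant, against 79.9 CPM in the control. Cells with vascular markers only had 13.5 CPM, from 2 UMIs, in the mutant, against 29.5 CPM, from 5 UMIs, in the control. Cells with both lists had 33.2 CPM in the mutant, against 28.0 CPM in the control, under the cells with endocardial markers only. Cells with neither list had 39.5 CPM in the mutant, against 52.0 CPM in the control. The endocardial over vascular ratio was 6.78 (1.82 to 57.0) in the mutant and 2.71 (1.04 to 8.93) in the control. Npr1 ran the other way in value, with 17.6 and 12.9 CPM in endocardial-marked cells of the mutant and the control and 40.4 and 29.5 CPM in vascular-marked cells. Its ratios of 0.435 (0.159 to 1.37) and 0.437 (0.101 to 1.90) both include 1.

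Npr1, the receptor of the cardiac peptides, was low but present in several gates. Immune cells had 10 UMIs in each library, or 27.1 CPM (13.0 to 49.9) in the mutant, against 39.7 CPM (19.1 to 73.1) in the control. Endothelial cells had 40 UMIs, or 25.2 CPM (18.0 to 34.2), in the mutant, against 22 UMIs, or 18.7 CPM (11.7 to 28.3), in the control. Atrial cells had 18.4 CPM (15.2 to 22.1) in the mutant, against 16.6 CPM (13.8 to 19.8) in the control. The intervals of these 3 gates overlap in both libraries, so their order is not resolved. Ventricular cells stood below the atrial ones, at 5.89 CPM (4.88 to 7.04) in the mutant, against 4.73 CPM (3.88 to 5.71) in the control. Epicardial and mesenchymal cells had 3.84 to 6.53 CPM, and erythroid cells 1 UMI in the mutant and 0 in the control. Over whole gates no ratio between the libraries excluded 1, from 0.683 in immune to 1.70 in mesenchymal cells. Within gates, ratios of marker subgroups included 1 with 2 exceptions, picked from many subgroups by their intervals. It was 1.74 (1.13 to 2.69) in ventricular cells with neither trabecular nor compact markers. In mesenchymal cells with Tcf21 it was 3.59 (1.08 to 18.7), from 23 UMIs in the mutant and 3 in the control. Ratios below 1 included 0.702 (0.311 to 1.56) in trabecular-marked cells and 0.31 (0.0295 to 1.89), from 2 and 5 UMIs, in mesenchymal cells without Tcf21.

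Npr2, the receptor of C-type peptide, had at most 28 UMIs in a gate, and none of its ratios excluded 1. Mesenchymal cells had 10 UMIs, or 2.61 CPM (1.25 to 4.80), in the mutant, against 6 UMIs, or 2.88 CPM (1.06 to 6.28), in the control, a ratio of 0.906 (0.298 to 3.03). Ventricular cells had 22 UMIs, or 1.08 CPM, in the mutant, against 28 UMIs, or 1.23 CPM, in the control. Atrial cells had 1.27 CPM in the mutant, against 1.74 CPM in the control. Epicardial and endothelial cells held 1 or 2 UMIs per library, and immune and erythroid cells 0, which in erythroid cells allows up to 0.906 CPM in the mutant, against 1.35 CPM in the control.

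Other genes of natriuretic signalling were sparse, and few passed the minimum. Of a list of 15 names, 13 were in the gene table, and 0 passed in ventricular cells and 1 in each of the atrial, epicardial, mesenchymal and endothelial gates, none of these past 1.5-fold, which 1.95%, 6.6%, 2.93% and 7.7% of all genes in these gates passed. Nppc, the ligand of Npr2, was found in endothelial cells at 86.1 CPM in the mutant, against 57.7 CPM in the control, a ratio of 1.49 (1.11 to 2.03). Gucy1a1, a subunit of the nitric oxide receptor that also makes cyclic GMP, had 261 CPM in mutant and 287.5 CPM in control epicardial cells. Corin, the protease that activates the Nppa peptide, had 7.94 CPM in mutant and 8.57 CPM in control atrial cells. In ventricular cells it had 3.19 CPM in the mutant, against 2.14 CPM in the control, a ratio of 1.49 (1.01 to 2.20). Other list genes below the minimum also had intervals without 1, in both directions. Ventricular ratios were 1.72 (1.16 to 2.56) for Prkg1, 1.87 (1.10 to 3.24) for Pde5a and 0.823 (0.695 to 0.974) for Gucy1b1. The atrial ratio of Prkg1 was 0.603 (0.378 to 0.943).

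The regulators of Nppa and the Cited1 partners gave few calls. Of 15 regulators, 5 passed the minimum in ventricular and 6 in atrial cells, and 0 of them passed 1.5-fold in either gate. Tbx3 was below the minimum in ventricular cells, with 55 UMIs, or 2.70 CPM, in the mutant, against 10 UMIs, or 0.438 CPM, in the control (ratio 6.17, 3.11 to 13.6). Its atrial ratio was 0.778 (0.427 to 1.39). Tbx2, also below the minimum, had ratios of 3.06 (1.89 to 5.13) in atrial and 0.922 (0.580 to 1.46) in ventricular cells. Further regulators below the minimum had intervals without 1, among them Hand1 at 1.48 (1.31 to 1.69) in ventricular and 0.420 (0.209 to 0.828) in mesenchymal cells. Gata6, a GATA factor, had 154 CPM in mutant and 239.6 CPM in control epicardial cells (ratio 0.644, 0.533 to 0.778), 1 of 4 measured there beside 6.6% of all genes past 1.5-fold in either direction. Ankrd1, a cardiomyocyte stress gene, had 58.8 CPM in mutant and 114 CPM in control mesenchymal cells (ratio 0.514, 0.426 to 0.619), 1 of 6 measured there beside 2.93% of all genes. Its levels were 1592 CPM in mutant and 1647 CPM in control ventricular cells, and the part of stray RNA in the mesenchymal values was not tested. Among 7 relatives and partners of Cited1, Smad4 had 52.7 CPM in mutant and 33.2 CPM in control atrial cells (ratio 1.59, 1.34 to 1.88), 1 of 2 measured there beside the 1.95% of all genes. Cited2 had 78.0 CPM in mutant and 38.2 CPM in control endothelial cells (ratio 2.04, 1.44 to 2.94), the 1 measured there beside the 7.7%. Cited4, a relative of Cited1, had 195.3 CPM in mutant and 125.8 CPM in control erythroid cells (ratio 1.55, 1.35 to 1.79), 1 of 2 measured there beside 41.4% of all genes.

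The genes whose levels ran most like those of the members were named from 10420 genes over 14 points, the 7 gates of both libraries. By Pearson correlation of log2(CPM + 10), a description across gates that share their libraries, these were Ftcd (0.99), AC165271.1 (0.99) and Casq1 (0.99) for Nppa. For Nppb they were Mov10l1, Klhl31 and Art3, for Cited1 Sox3, Smpx and Cabcoco1, for Npr3 Ehd2, Tek and S100a16, and for Npr1 Itga6 (0.98), Pdlim4 (0.94) and Man1c1 (0.94). Npr2 had too few UMIs for the rule. Over single ventricular cells, as the mean of both libraries, Nppa ran most like Mest (0.43), an imprinted gene of embryonic mesoderm, then Cited1 (0.39) and Gtsf1 (0.39). Nppb ran most like Nppa (0.37), Ankrd1 (0.31) and Ctgf (0.30). Cited1 ran most like Mest, at 0.63 in the mutant and 0.53 in the control, then Nppa and Fitm1 (0.38).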

How the data were processed

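Single cells of E12.5 hearts, freed with TrypLE, went through a 10X Genomics Chromium kit that the labels give as v2. Per the file headers, the authors ran Cell Ranger 3.0.2, and what they deposited are raw UMI counts for each gene and barcode. Seurat appears in the submitters' processing notes with no version. No build is named in the sources used here; 99.6% of the 31053 gene identifiers were in GENCODE M21 (GRCm38), which gave positions. The control matrix was unfiltered (542175 barcodes with a UMI) and the mutant matrix filtered (7181 barcodes, at least 500 UMIs each). The control matrix listed 6794880 barcodes, the size of the list of a later kit, so the chemistry is uncertain. The filtered mutant matrix does not show the size of its list.

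Cells needed 1000 UMIs, 500 genes and at most 20% mitochondrial UMIs, and 2156 mutant and 1760 control barcodes that reached 1000 UMIs failed another of these. Gates were set per 10000 UMIs of a cell: cardiomyocyte markers (Tnnt2, Actc1, Tnnc1, Ttn, Actn2, Cryab, Tpm1) at 100, Myl2 at 30 for ventricular cells, Myl2 under 10 and atrial markers at 8 for atrial cells, epicardial, mesenchymal and endothelial markers at 10 and immune markers at 20, each with 2 distinct genes, and haemoglobin genes at 1000. Epicardial cells may also carry mesenchymal markers. The thresholds were set with the data at hand, and 56 mutant and 71 control cells had between 50 and 150 on the cardiomyocyte scale. Counts were summed per gate and library, and CPM, ratios and shares have exact Poisson, conditional binomial and Clopper-Pearson intervals at 95%. A count of 0 was read as up to 3 UMIs. PCR copies are collapsed by UMI, but transcripts of 1 cell are not independent. No p-value was computed. Doublets were scored after the Scrublet method at an expected 6% with 30 neighbours; its automatic threshold marked 1 mutant and 0 control cells, too few to have worked. Ratios and intervals were tested on simulated gate sums drawn as independent Poisson counts. These lack the uneven spread of transcripts over cells, so the test cannot show that the intervals cover it. The genes named beyond the members are those of 3 lists with at least 30 UMIs in a gate, and the 3 genes most correlated with each member that had 100 UMIs. The members, lists and rules were chosen with earlier results of these data known. Tools were Python 3.11.15, numpy 2.4.6, scipy 1.17.1, pandas 2.3.3, scanpy 1.11.5 and scikit-image 0.26.0.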

Additional observations from a re-analysis of the deposited data

Results flagged for a closer look

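Cited1 had opposite signs in the cardiomyocytes of the chambers. Its log2 ratio of mutant over control CPM was 0.46 in the ventricular gate (540.6 CPM in the mutant, against 394 CPM in the control) and -0.31 in the atrial gate (416 CPM against 516 CPM). With 1 library per genotype the difference between the gates was not tested. The atrial ratio lay below 1 in all 4 depth bins, although the interval of 1 of them included 1, and the ventricular ratio lay above 1 in all 4.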

How the results depend on the processing

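With 1 library per genotype no replicate could be left out. No paired analysis was possible because each genotype has 1 library. Of 93 recomputed values, 64 moved by less than their counting interval and 29 moved by more; no ratio whose interval excluded 0 on the log2 scale changed sign under a planned setting. The log2 ratio of Nppa in ventricular cells, 0.40 as reported, was 0.79 with equal weight per cell, 0.79 with cells thinned to 2000 UMIs, 0.64 with doubled gate thresholds and 0.57 without the top 6% of doublet scores. In atrial cells, reported at 0.22, it was 0.34, 0.37, 0.26 and 0.25 under the same settings. Ventricular Cited1, reported at 0.46, was 0.56 with equal weight per cell, 0.61 when thinned and 0.50 without the top doublet scores. Atrial Cited1, reported at -0.31, was -0.16 when thinned and -0.21 with doubled thresholds, and atrial Npr1, reported at 0.15, was 0.92 when thinned and 0.60 with equal weight per cell. Ventricular Nppb was 0.47 with doubled thresholds, against 0.36, atrial Nppb was 0.76 with doubled thresholds, against 0.54, and endothelial Npr3 was -0.14 with equal weight per cell, against 0.37, an interval that includes 0. Epicardial Nppa, reported at -1.64, was -2.56 with equal weight per cell and -2.61 when thinned. In alternatives chosen after seeing the data it was -3.42 with droplets of both epicardial and cardiomyocyte markers kept and -0.27 without droplets of 5 or more Nppa UMIs, a filter on the measured count itself. Epicardial Cited1 turned to -1.41 with those mixed droplets kept, against 0.55.

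The Nppa found over expected in epicardial cells was 0.0229 in the mutant and 0.0970 in the control with the 7 sarcomere genes first chosen, which include Myl7 and Tnni1. It was 0.0783 and 0.350 with the genes of the cardiomyocyte gate, and 0.338 and 2.44 without Myl7 and Tnni1, a list chosen after seeing the data. Without droplets of 5 or more Nppa UMIs as well, a filter on the measured count itself, it was 0.662 and 0.808. The cause of these changes was not tested. Depth limits the receptors most: Npr2 had at most 28 UMIs in a gate and library.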
